A study of Homo sapiens with 9 samples.

Results

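HEK293 cells labelled as overexpressing the receptor GPR39 and exposed to its agonist TC-G-1008 were compared with mock HEK293 cells across all genes that the array platform names. HEK293 is a human embryonic kidney cell line. The comparison uses 6 of the 9 arrays of the study, chosen by their labels. The mock group is 3 arrays of cells labelled naive and without cumate. The agonist group is 3 arrays whose labels give GPR39 overexpression and treatment with 1 uM TC-G-1008. Cumate is an inducer compound for engineered gene switches. The titles of the mock arrays say that none was given, and for the agonist group the labels leave out both the use of cumate and the length of the exposure. The other 3 arrays, called the GPR39 group here, carry the overexpression label with 0.03 mg/mL of cumate and no agonist. All groups were grown in medium with serum. No group received the agonist without the receptor label, so receptor and agonist cannot be told apart in agonist against mock. GPR39 minus mock likewise cannot tell the receptor label from cumate. Agonist minus GPR39 may differ in cumate as well as in agonist, since the labels do not say. The replicates are called biological, without a statement on separate cultures, so each p-value reflects array-to-array spread that may be technical.

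GPR39 is a G protein-coupled receptor that is sensitive to extracellular zinc, and TC-G-1008 is a synthetic agonist of it. Receptors of this kind can couple to Gq, which raises intracellular calcium, and to Gs, which raises cyclic AMP and activates the transcription factor CREB. Changes in the cytoskeleton feed the transcription factor SRF and the coactivator YAP, which binds DNA through TEAD proteins, while calcium and protein kinase C feed the ERK kinases, AP-1 and NF-kB. Immediate-early genes such as FOS and EGR1 are the first to respond to such signals, and feedback inhibitors such as the dual-specificity phosphatases follow.

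The upstream sequences of 6 genes with large rises are shown because they hold the letters that those transcription factors are known to bind. Each is the run of 250 bases before the RefSeq start of the gene in build GRCh38.p14, written 5′ to 3′ on the strand of the gene. The genes were chosen for display after the matches were seen. Capitals mark AP-1 (TGANTCA), TEAD (GGAATG), the NF-kB motif (GGGRNWYYCC) or the SRF CArG box, searched on both strands. R is A or G, W is A or T, Y is C or T and N is any base. Only full matches are marked. A near match stays in lower case, such as tggaatttcc in CXCL8, which departs from the NF-kB letters only at its first base. A lack of capitals therefore does not show the lack of a site.
ANKRD1 (chr10:90921088-90921337, minus strand, AP-1 and a pair of TEAD matches): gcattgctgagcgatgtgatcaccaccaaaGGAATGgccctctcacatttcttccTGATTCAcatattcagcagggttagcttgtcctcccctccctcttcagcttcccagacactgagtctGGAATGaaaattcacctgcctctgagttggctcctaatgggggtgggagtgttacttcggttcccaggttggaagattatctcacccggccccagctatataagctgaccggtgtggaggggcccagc
CCN2 (chr6:131951373-131951622, minus strand, 3 TEAD matches, the last overlapped by an NF-kB match): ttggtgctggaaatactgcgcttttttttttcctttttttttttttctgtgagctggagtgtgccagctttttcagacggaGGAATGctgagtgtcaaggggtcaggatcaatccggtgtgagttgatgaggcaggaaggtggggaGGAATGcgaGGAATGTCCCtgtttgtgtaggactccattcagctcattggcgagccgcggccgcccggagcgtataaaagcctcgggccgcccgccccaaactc
MMP10 (chr11:102780629-102780878, minus strand, AP-1): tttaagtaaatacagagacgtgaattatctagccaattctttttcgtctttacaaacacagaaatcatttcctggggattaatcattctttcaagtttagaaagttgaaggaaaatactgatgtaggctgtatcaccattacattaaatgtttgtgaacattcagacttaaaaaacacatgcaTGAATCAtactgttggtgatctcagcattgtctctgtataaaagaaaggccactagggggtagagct
CXCL8 (chr4:73740319-73740568, plus strand, AP-1): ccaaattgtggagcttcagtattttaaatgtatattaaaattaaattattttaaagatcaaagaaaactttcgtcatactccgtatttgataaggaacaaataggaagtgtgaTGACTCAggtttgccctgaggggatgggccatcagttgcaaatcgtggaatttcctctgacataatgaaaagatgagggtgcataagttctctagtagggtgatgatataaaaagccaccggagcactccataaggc
IL11 (chr19:55370464-55370713, minus strand, AP-1): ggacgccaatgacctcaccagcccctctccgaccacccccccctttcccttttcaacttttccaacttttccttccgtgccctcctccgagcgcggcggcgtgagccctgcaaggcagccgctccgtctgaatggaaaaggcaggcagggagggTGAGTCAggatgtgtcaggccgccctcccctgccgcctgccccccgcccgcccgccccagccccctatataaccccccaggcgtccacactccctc
EGR1 (chr5:138465229-138465478, plus strand, a pair of SRF CArG boxes): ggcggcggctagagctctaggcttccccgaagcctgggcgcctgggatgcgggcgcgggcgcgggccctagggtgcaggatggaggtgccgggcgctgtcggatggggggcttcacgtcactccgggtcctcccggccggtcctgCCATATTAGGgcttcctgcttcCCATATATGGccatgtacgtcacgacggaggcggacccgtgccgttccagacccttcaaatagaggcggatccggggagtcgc

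The arrays gave similar value ranges. The median log2 signal of an array ran from 3.13 to 3.22. Correlations across probe sets were 0.984 to 0.990 within mock, 0.987 to 0.989 within the agonist group and 0.978 to 0.982 between them. Mock replicate 1 stood apart: its mean correlation was 0.985 with the other mock arrays and 0.988 with the GPR39 arrays. The second principal component of these 6 arrays held 19.6% of the variance and put it at 46.7 while mock replicates 2 and 3 lay at -9.27 and -27.70. Between 4.71% and 6.49% of the values in a pair of arrays were exactly equal, and 320 tested probe sets held 1 value in all 3 agonist arrays and 431 in all 3 mock arrays. Such ties make some SDs too small, and what made them was not tested.

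GPR39 itself had 1 probe set, and it was too dim to pass the filter on low values. Its log2 signal was 2.43, 2.55 and 2.43 in mock and 2.45, 2.65 and 2.64 in the agonist arrays, with a mean of 2.58 in the GPR39 group. The groups overlapped, and the difference of 0.11 ± 0.08 (SE, limma, unadjusted p = 0.204) had a 95% interval from -0.07 to 0.30. The array therefore shows no overexpression of GPR39 behind the labels. Which stretch of the gene the probes cover, and whether an engineered copy holds it, was not found in the labels or files.

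Of 33376 probe sets tested, 2039 were higher in the agonist group (6.11%) and 2983 lower (8.94%) at an adjusted p under 0.05. The test was limma with Benjamini-Hochberg adjustment. Taking 1 probe set per gene, the one with the smallest p, 946 of 11916 genes were higher (7.94%) and 1671 lower (14%). The split depends on the scaling. Of the changed probe sets 40.6% were higher on the deposited values, 32.5% after centring each array on its median and 56.2% after centring on its 75th percentile, where 1247 genes were higher and 1201 lower. That last centring moved the median change of all probe sets by 0.07.

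At 2-fold or more, which is 1 unit on the log2 scale, 142 genes were higher (1.19%) and 137 lower (1.15%). In probe sets that split was 330 higher and 298 lower. It was 333 and 495 without mock replicate 1, 393 and 211 after centring on the 75th percentile and 306 and 358 after centring on the median. At 4-fold or more, 37 genes were higher and 2 lower. The typical change was small: its median was 0.52 among genes higher and -0.53 among genes lower, beside a median SE of 0.10. The arrays of the 2 groups did not overlap for 4903 genes (41.1%), which included 2616 of the 2617 genes called.

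**Figure D1:**
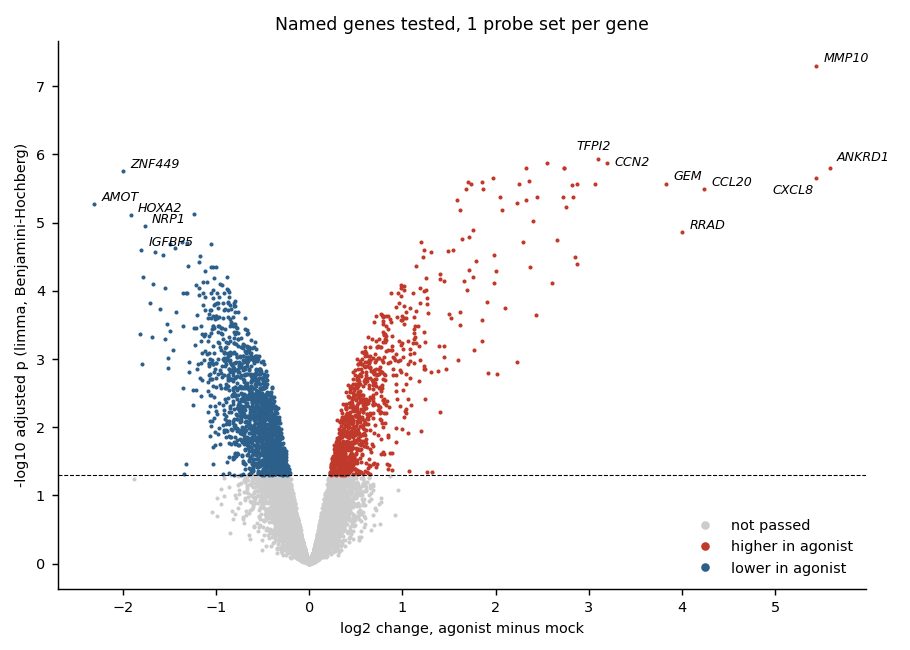
Each point is 1 of 11916 named genes, with the log2 change of agonist minus mock on the x axis and the -log10 of the adjusted p from limma on the y axis; the dashed line is the threshold of 0.05. The rises reach 5.59 (ANKRD1), while the falls end at -2.31 (AMOT); CXCL8 and RRAD are drawn at their fitted values, which are not bounds.

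The largest rises belonged to target genes of YAP and SRF, secreted proteases, chemokines, RGK GTPases and immediate-early genes. ANKRD1, a nuclear ankyrin repeat protein and standard YAP target, had log2 signals of 4.0, 4.77 and 4.15 in mock and 9.94, 9.95 and 9.78 in the agonist arrays. The lowest agonist array lay far above the highest mock array, a rise of 5.59 ± 0.18 or 48.0-fold (adjusted p = 1.58e-06, limma). Most of that difference was present without agonist: GPR39 minus mock was 5.22 (adjusted p = 1.63e-05) and agonist minus GPR39 0.37 (adjusted p = 0.282).

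CCN2, a secreted matrix protein and another YAP target, whose 3 TEAD matches are shown above, went from 7.09, 6.85 and 6.82 in mock to 10.06, 10.22 and 10.06. The groups were separated by almost 3 log2 units, with a change of 3.19 ± 0.09 (9.15-fold, adjusted p = 1.33e-06), and the other probe set of the gene gave 3.87. Its values in the GPR39 arrays lay between the groups, 2.54 above mock and 0.66 below the agonist group. These comparisons share arrays and are given side by side.

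The SRF and YAP list, which holds ANKRD1, CCN2 and also the angiomotins, was mixed. Of 26 tested genes 8 rose (30.8%) and 4 fell (15.4%), against 7.94% and 14% of all genes. Another 14 did not pass, and the median change was 0.12 against -0.01 over all genes. FHL2 (0.90), AMOTL2 (0.75), VGLL3 (0.61), TPM4 (0.48), TEAD4 (0.45) and CRIM1 (0.44) also rose. The falls were regulators of the same pathways. AMOT, angiomotin, which holds YAP at cell junctions, had the largest fall of all named genes, from 7.75, 7.86 and 7.88 to 5.68, 5.57 and 5.32. The groups lay about 2 units apart, a fall by 2.31 ± 0.10 on the log2 scale (adjusted p = 5.36e-06), of which 1.41 was already seen in the GPR39 group. YAP1 fell by 0.74, the DNA-binding partner TEAD2 by 1.12 and the SRF coactivator MRTFB by 0.65. Cytoskeletal genes that SRF is known to drive, VCL (0.16), TAGLN (0.07), ZYX (0.04) and TPM1 (-0.43), did not pass.

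**Figure D2:**
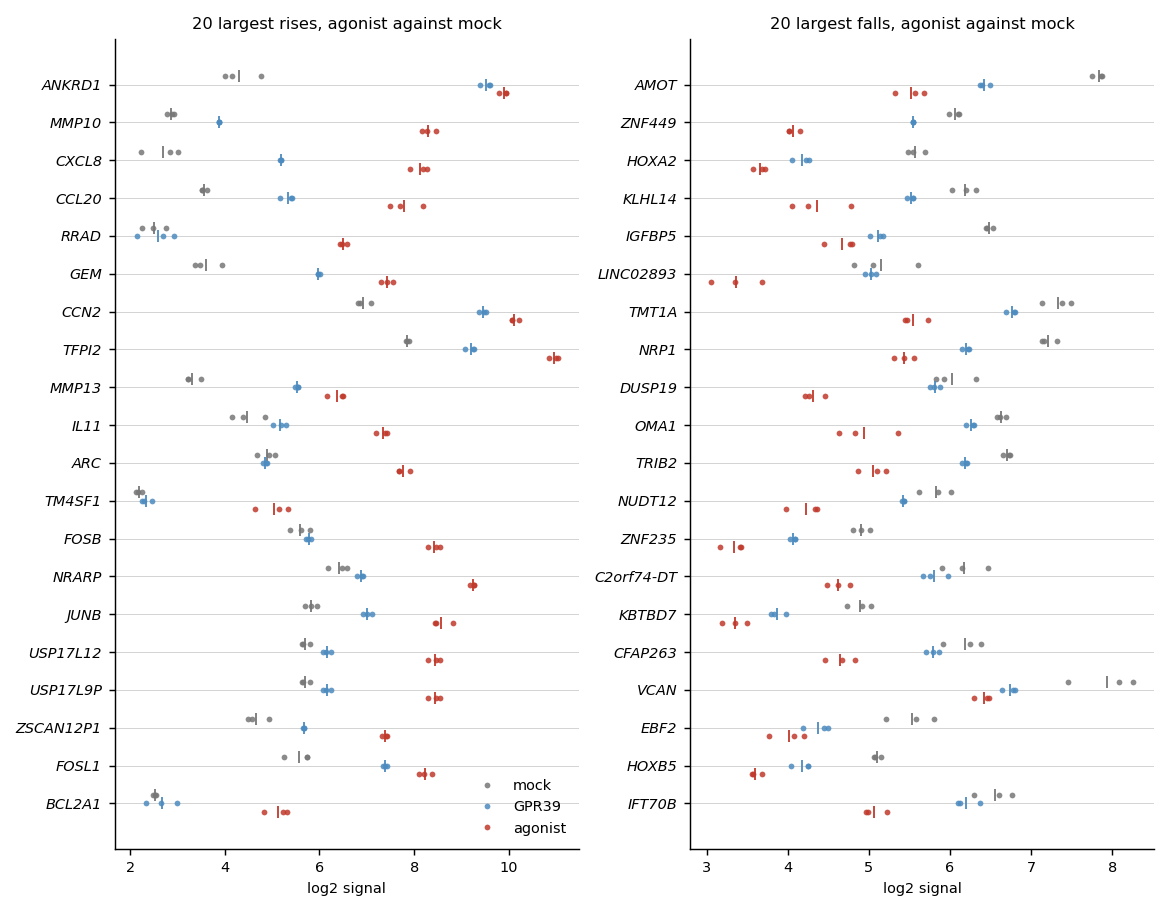
Log2 signals of the 20 genes with the largest rises (left) and the 20 with the largest falls (right), each dot 1 array and each tick a group mean of 3 arrays, in the order mock, GPR39 and agonist from top to bottom in a row. ANKRD1 is nearly as high in the GPR39 arrays (mean 9.52) as in the agonist arrays (9.89), while RRAD (2.59 and 6.50) and ARC (4.85 and 7.76) are much lower in the GPR39 than in the agonist arrays.

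Genes of the immediate-early list, which holds transcription factors and other early genes such as ARC, rose almost as a whole. Of 24 tested genes 22 rose (91.7%) and none fell, against 7.94% and 14% of all genes, and 13 rose at least 2-fold. The lists and their members were chosen with earlier results of these data known. Of all list genes together 25.5% rose and 16.8% fell. The median change of the immediate-early list was 1.06, against -0.01 over all genes. KLF2 (0.32) and KLF6 (0.16) did not pass. ARC, a synaptic protein gene used as an activity marker, was at 4.93, 4.69 and 5.05 in mock and at 7.68, 7.91 and 7.69 with agonist. It rose by 2.87 ± 0.11 (7.31-fold, adjusted p = 2.7e-06), and in the GPR39 group it lay -0.04 from mock.

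The AP-1 subunits rose to unequal degrees. FOSB went from 5.37, 5.81 and 5.61 to 8.54, 8.46 and 8.29, with no overlap (41.1% of all genes had none). Its change was 2.83 ± 0.12 (adjusted p = 4.28e-06), and its other probe set gave 1.47. JUNB went from 5.83, 5.94 and 5.70 to 8.44, 8.83 and 8.46, a rise of 2.75 ± 0.12 (adjusted p = 5.95e-06). FOSL1 was lowest in mock replicate 1 (5.24, with 5.74 in both others) and lay at 8.20, 8.37 and 8.11 with agonist, a rise of 2.66 ± 0.14 (adjusted p = 1.82e-05). FOSL2 (1.12), FOS (1.01), JUN (0.53) and JUND (0.52) rose less, so the subunit genes covered a range from 0.52 to 2.83.

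These genes also differed in where they moved between the groups. FOSB lay 0.17 above mock in the GPR39 group (adjusted p = 0.537) and 2.66 higher again with agonist. FOSL1 was already 1.81 above mock in the GPR39 group, with 0.85 added in the agonist group. EGR1, a zinc finger factor with the pair of CArG boxes shown above, was at 5.90, 5.97 and 5.63 in mock and at 8.24, 8.35 and 8.22 with agonist. That is 2.44 ± 0.10 (adjusted p = 4.19e-06), with 2.15 from its other probe set and 0.07 for GPR39 minus mock. EGR3 (1.52) and EGR4 (1.23) rose as well.

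The stress factor ATF3 rose by 1.91 ± 0.15 and IER3, an early survival gene, by 1.86 ± 0.07. IER3 has 11 probe sets, which gave 0.75 to 1.86. MYC rose by 0.64, SRF by 0.44 and KLF4 by 0.38.

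**Figure D3:**
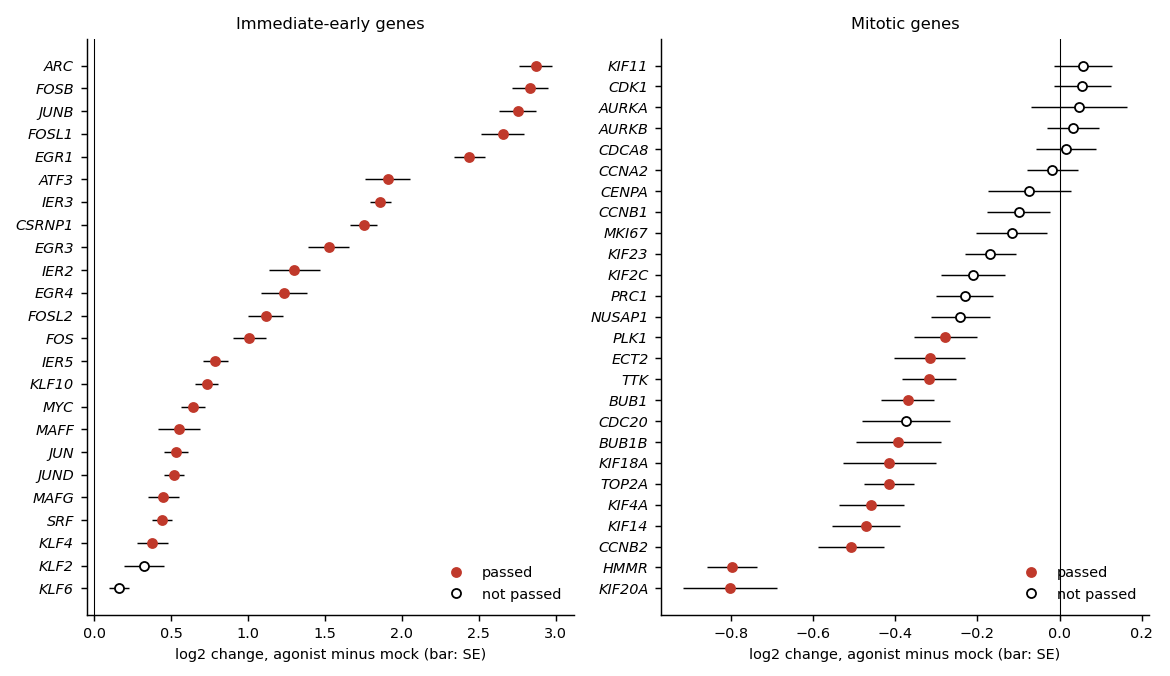
Log2 change of agonist minus mock with its SE for the 24 tested immediate-early genes (left) and the 26 tested mitotic genes (right), filled where the adjusted p was under 0.05. Immediate-early genes lie between 0.16 and 2.87, and the 12 mitotic genes past the threshold lie between -0.80 and -0.28; the axes differ between the panels.

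Outputs and inhibitors of the ERK pathway rose in 15 of 20 tested genes (75%) and fell in 2 (10%), with a median of 0.55. Over all genes 7.94% rose and 14% fell. EPHA2, a receptor tyrosine kinase induced by ERK, went from 6.37, 6.61 and 6.41 to 8.61, 8.38 and 8.60, a rise of 2.07 ± 0.09 (4.19-fold, adjusted p = 6.63e-06). DUSP1, a phosphatase that switches MAP kinases off, went from 8.98, 8.92 and 8.84 to 10.59, 10.68 and 10.68, a rise of 1.74 ± 0.07 (adjusted p = 2.7e-06). Neither gene overlapped between the groups, as was so for 41.1% of all genes and for 2616 of the 2617 genes called. DUSP4 rose by 1.08 ± 0.11 and stood apart in its course, with 1.14 for GPR39 minus mock and -0.07 for agonist minus GPR39.

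DUSP5 (0.97), DUSP2 (0.74), SPRY2 and SPRY4 (both 0.55) and the ETS factors ETV5 (1.08) and ETV4 (0.50) also rose, as did CCND1, cyclin D1 (0.99). DUSP6, the ERK phosphatase most often used as a readout of the pathway, was at -0.01 and did not pass. ETV1 fell by 0.62 and EPHA4 by 0.54.

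On the NF-kB list 10 of 16 tested genes rose (62.5%) and none fell, against 7.94% and 14% of all genes. Another 6 did not pass, and the median was 0.55. The subunit genes NFKB2 (1.71 ± 0.09), NFKB1 (1.68 ± 0.07), REL (1.13 ± 0.10) and RELB (0.80) rose, and RELA was at 0.35 without passing. NFKB1 was at 6.43, 6.58 and 6.48 in mock and 8.21, 8.12 and 8.19 with agonist, so that the groups were separated by more than 1.5 units. BCL2A1, a survival gene driven by NF-kB, was below the detection limit used here in all 3 mock arrays (2.49, 2.54 and 2.52) and at 5.23, 5.30 and 4.84 with agonist. Its rise was at least 2.47 (5.56-fold, adjusted p = 7.74e-05), where "at least" sets the 40th percentile of an array, 2.63 to 2.70, in place of dimmer values. Wherever such a bound is given, the adjusted p beside it belongs to the limma change fitted on the values as deposited, not to the bound.

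Of chemokines, cytokines and growth factors, 15 of 32 tested genes rose (46.9%) and 0 fell, against 7.94% and 14% of all genes. Another 17 did not pass, and the median was 0.50. CXCL8, the neutrophil chemokine interleukin-8, was at 3.0, 2.23 and 2.84 in mock and 8.20, 8.27 and 7.91 with agonist. The second mock array was below the limit, and the rise was at least 5.30, or 39.3-fold (adjusted p = 2.19e-06). It was 2.49 above mock in the GPR39 group and 2.95 higher again in the agonist group. CCL20, which attracts cells through CCR6, went from 3.53, 3.63 and 3.52 to 7.70, 8.19 and 7.49, a rise of 4.24 ± 0.17 (18.8-fold, adjusted p = 3.23e-06).

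IL11, an IL-6 family cytokine with an AP-1 match shown above, went from 4.85, 4.39 and 4.14 to 7.39, 7.18 and 7.43. Its rise was 2.87 ± 0.17 (adjusted p = 4.07e-05), with 0.70 for GPR39 minus mock (adjusted p = 0.12). TSLP, an epithelial alarm cytokine (1.85 ± 0.16), HBEGF, a ligand of the EGF receptor (1.76 ± 0.11), the chemokines CCL2 (1.39) and CCL7 (1.27) and the TNF family ligand CD70 (1.04) rose as well. CXCL2 (0.71), TNF (0.18) and GDF15 (-0.08) did not pass. A further 9 named members of the list were too dim to test.

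On the list of cytokine receptors and JAK-STAT regulators 8 of 25 rose (32%) and 1 fell (4%), with a median of 0.17. Among all genes 7.94% rose and 14% fell. The rises on the list included the kinase PIM2 (1.14 ± 0.07), the interleukin-4 receptor IL4R (1.01 ± 0.15), IFNGR1 (0.68 ± 0.08) and IL6R (0.63 ± 0.11). IL17RD fell by 0.46. SOCS3, the usual STAT3 feedback gene, was at 0.46 and STAT3 at 0.02, and neither passed. Without mock replicate 1, 5 genes rose and 1 fell, and with mock replicate 3 or agonist replicate 3 left out the counts were also 5 and 1.

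A few secreted proteases rose steeply while most of their family did not pass. Of 19 tested proteases and inhibitors 6 rose (31.6%), 2 fell (10.5%) and 11 did not pass, with a median of 0.07. Over all genes 7.94% rose and 14% fell. MMP10, stromelysin, was at 2.79, 2.93 and 2.87 in mock and at 8.28, 8.46 and 8.17 with agonist. Its rise of 5.44 ± 0.09, or 43.4-fold, had the smallest adjusted p of all named genes (4.99e-08). In the GPR39 group it was 1.02 above mock, and the agonist group lay 4.42 higher.

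MMP13, a collagenase, went from 3.22, 3.22 and 3.50 to 6.48, 6.50 and 6.16, a rise of 3.06 ± 0.12 (adjusted p = 2.7e-06) of which 2.20 was seen in the GPR39 group. MMP1, another collagenase, was below the limit in all 3 mock arrays and rose by at least 1.74 (3.34-fold, adjusted p = 0.00162), with agonist replicate 2 (5.05) above the others (4.05 and 4.06). Inhibitors moved both ways. TFPI2, a protease inhibitor of the matrix, went from 7.86, 7.82 and 7.88 to 10.99, 11.04 and 10.84, a rise of 3.10 ± 0.08 (8.59-fold, adjusted p = 1.15e-06). RECK, a membrane inhibitor of metalloproteinases, fell by 1.02 ± 0.09, TIMP3 rose by 0.30, and TIMP1 (-0.28) and MMP14 (-0.30) did not pass.

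The RGK GTPases, which restrain calcium channels and the cytoskeleton, split into pairs. RRAD was at 2.47, 2.76 and 2.25 in mock, with 2 arrays below the limit, and at 6.43, 6.48 and 6.59 with agonist. It rose by at least 3.81 (14.0-fold, adjusted p = 1.39e-05), and in the GPR39 group it was 0.09 from mock. GEM went from 3.94, 3.47 and 3.37 to 7.43, 7.55 and 7.31, a rise of 3.83 ± 0.14 (14.3-fold, adjusted p = 2.7e-06), with 2.38 of it in the GPR39 group. REM2 (0.25) and REM1 (-0.03) did not pass.

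Of 23 tested cyclic AMP and CREB genes 10 rose (43.5%) and none fell, against 7.94% and 14% of all genes. The list median was 0.18. SIK1, a kinase that feeds back on CREB, went from 4.92, 4.98 and 4.83 to 6.23, 6.53 and 6.32. It rose by 1.45 ± 0.10 (2.73-fold, adjusted p = 7.12e-05), with 0.34 for GPR39 minus mock (adjusted p = 0.161). CREB3L2 (0.79), CREM (0.72), CREB5 (0.65) and the secreted neuropeptide precursor VGF (1.00) rose too. PCK1, a gluconeogenic enzyme, was below the limit in mock and rose by at least 0.73. The adenylyl cyclase ADCY9 rose by 0.39, while ADCY5 (-0.66) did not pass. The count of genes that rose was 6 with the 6 arrays alone or without agonist replicate 2, agonist replicate 3 or mock replicate 2.

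Calcium and NFAT genes moved both ways, 3 up and 3 down among 13 (23.1% each, against 7.94% and 14% of all genes). The inositol kinase ITPKC rose by 1.08 ± 0.14 and the prostaglandin synthase PTGS2 by 0.79. The calcineurin regulators diverged. RCAN1, an NFAT target, was 0.58 ± 0.12 above mock with agonist (adjusted p = 0.0161) but 1.12 above mock in the GPR39 group, and its call was lost without agonist replicate 3. RCAN3 fell by 0.90 ± 0.11 and RCAN2 by 0.44 ± 0.10, and RCAN2 lost its call without mock replicate 1 (adjusted p = 0.0515) or 2, without agonist replicate 1 or 3, and with the 6 arrays alone. CAMK2D fell by 0.95 ± 0.12.

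Zinc readouts were few. Of 7 tested genes MT2A, a metallothionein that binds zinc, rose by 0.76 ± 0.10 and its activator MTF1 by 0.36 ± 0.07, while MT1F fell by 0.74 ± 0.16. MT1X was at 0.00 and MT1E at 0.30 without passing. MTF1 lost its call with the 6 arrays alone and MT1F without mock replicate 2. Metallothionein genes are near-identical copies, and their signals may be shared.

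Of ER chaperone and unfolded protein response genes 11 of 19 rose (57.9%) and none fell, against 7.94% and 14% of all genes. The list median was 0.27. XBP1, the spliced transcription factor of the response, went from 6.33, 6.37 and 6.46 to 7.61, 7.52 and 7.69, a rise of 1.22 ± 0.07 (2.33-fold, adjusted p = 3.21e-05). MANF (1.06), the sensor kinase EIF2AK3 (1.00), SEL1L of the degradation machinery (0.84) and the chaperone HYOU1 (0.79) rose, while ERN1 (0.17) and DERL3 (0.10) did not pass. The count was 6 after centring on the median, with the 6 arrays alone or without mock replicate 3, and 7 without agonist replicate 2 or 3 or mock replicate 2.

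On the ATF4 and amino-acid list 12 of 23 rose (52.2%) and 1 fell (4.35%), against 7.94% and 14% of all genes. The list median was 0.42. CTH, which makes cysteine, went from 5.47, 5.36 and 5.12 to 7.06, 7.10 and 7.16, a rise of 1.79 ± 0.11 (3.46-fold, adjusted p = 3.63e-05). The hormone STC2 rose by 1.25, asparagine synthetase ASNS by 1.02, SESN2 by 0.95 and ATF4 itself by 0.71. DDIT3 (0.37) and TRIB3 (0.35), the usual death-linked targets, did not pass. VLDLR fell by 1.07.

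**Figure D4:**
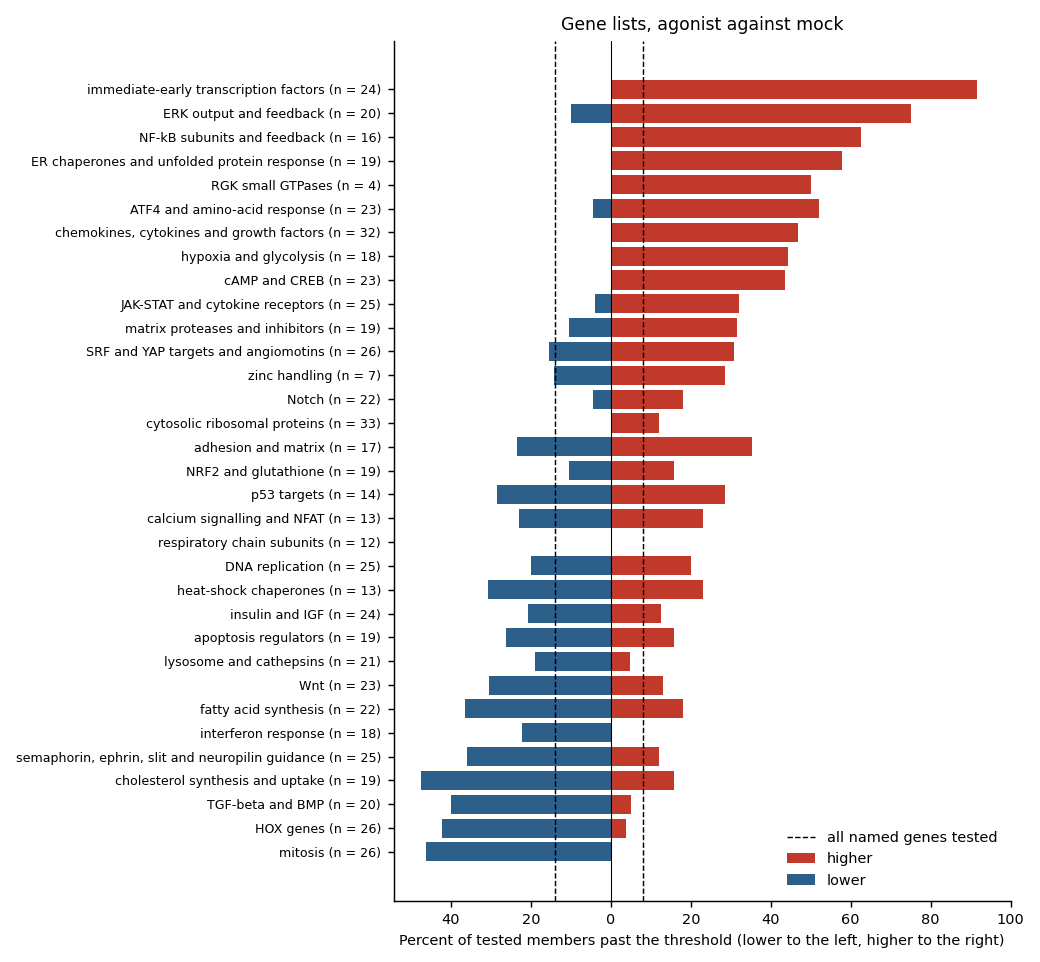
Percent of the tested members of each of 33 pathway lists that were higher (right) or lower (left) in the agonist group at an adjusted p under 0.05; dashed lines mark 7.94% higher and 14% lower over all named genes, and n is the number of genes tested. Immediate-early genes reach 91.7% higher, while 46.2% of mitotic genes were lower. The lists were chosen with earlier results of these data known.

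Hypoxia and glycolysis genes rose in 8 of 18 (44.4%) and fell in none, against 7.94% and 14% of all genes. The list median was 0.28. NDRG1 (1.23 ± 0.15), ANKRD37 (1.13 ± 0.11), hexokinase HK2 (0.78 ± 0.09) and VEGFA (0.60 ± 0.10) led. KDM3A (0.35) lost its call in 5 settings, among them without agonist replicate 1 or 2 and without mock replicate 2 or 3. LDHA (0.26), PGK1 (0.13) and EGLN3 (0.07) did not pass. The count was 4 without agonist replicate 1, mock replicate 2 or mock replicate 3, and 5 without agonist replicate 2.

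Heat-shock genes moved both ways. The inducible HSP70 genes HSPA1A (-0.58 ± 0.07), HSPA1B (-0.59 ± 0.07) and HSPA1L (-0.69 ± 0.11) fell, but these are near-identical copies that the probes may not tell apart. HSPA1A was at 12.44, 12.45 and 12.30 in mock and 11.85, 11.80 and 11.80 with agonist. The cochaperone BAG3 rose by 0.48 ± 0.07 and HSPB8 by at least 0.78. In all, 3 of 13 rose (23.1%) and 4 fell (30.8%), against 7.94% and 14% of all genes.

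Among regulators of apoptosis 3 of 19 rose (15.8%) and 5 fell (26.3%), against 7.94% and 14% of all genes. Besides BCL2A1, the death gene PMAIP1 (0.93 ± 0.07) and the survival gene MCL1 (0.80 ± 0.08) rose. BCL2 fell by 0.88 ± 0.10, BCL2L1 by 0.55 ± 0.09, and BAX, BMF and APAF1 by 0.44 each. BBC3 (0.04) and BID (-0.07) did not pass. The count of falls was 3 with the 6 arrays alone, after 75th-percentile centring or without mock replicate 2, and 2 without agonist replicate 1. Targets of p53 were even, 4 up and 4 down of 14 (28.6% each). PLK2 (0.75) rose, and CCNG1 (-0.50) and TP53INP1 (-0.48) fell. With 75th-percentile centring 2 of the p53 targets fell.

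Lipid synthesis genes fell more often than they rose, as did all genes (14% lower and 7.94% higher). On the cholesterol list 9 of 19 fell (47.4%) and 3 rose (15.8%), with a median of -0.31. After 75th-percentile centring 6 fell and 3 rose. SQLE, which makes squalene epoxide, fell by 0.66 ± 0.07, TM7SF2 by 0.90 ± 0.13 and INSIG2, which retains the SREBP complex, by 0.84 ± 0.10. INSIG1, its paralogue and an SREBP target, went the other way, from 9.38, 9.30 and 9.32 to 10.26, 10.35 and 10.04, a rise of 0.88 ± 0.09 (adjusted p = 0.000728). HMGCS1 rose by 0.49 ± 0.09.

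On the fatty acid list 8 of 22 fell (36.4%) and 4 rose (18.2%), with a median of -0.24. After 75th-percentile centring 6 fell and 5 rose. ELOVL6, an elongase, went from 6.82, 6.90 and 6.83 to 5.85, 5.88 and 5.75, a fall by 1.02 ± 0.07 (adjusted p = 6.54e-05). The desaturases SCD5 (-0.98 ± 0.09), SCD (-0.87 ± 0.07, with -0.56 from its other probe set) and FADS2 (-0.49 ± 0.06) and the carboxylase ACACA (-0.59) fell. ACSL4 rose by 0.77 ± 0.06, and FASN was at -0.04.

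Developmental genes were among the largest falls. HOXA2, a homeobox factor of the hindbrain, went from 5.69, 5.49 and 5.54 to 3.58, 3.68 and 3.72. It fell by 1.92 ± 0.09 (adjusted p = 7.81e-06), with -1.39 of that in the GPR39 group. Of 26 tested HOX genes 11 fell (42.3%) and 1 rose (3.85%), against 14% and 7.94% of all genes. The list median was -0.39. HOXB5 (-1.50 ± 0.08), HOXD10 (-1.08 ± 0.13), HOXB6 (-0.94 ± 0.13), HOXD9 (-0.77) and HOXB7 (-0.77 ± 0.08) fell, HOXD1 rose by 0.49, and none of the 7 tested HOXC genes passed. With the 6 arrays alone, 7 fell and none rose. None rose either after centring on the median, or without agonist replicate 2, mock replicate 1 or mock replicate 3. Neighbouring HOX genes and their antisense transcripts overlap in places, and the strand of the probes was not examined.

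Guidance molecules fell in 9 of 25 tested genes (36%) and rose in 3 (12%), against 14% and 7.94% of all genes. The list median was -0.21. NRP1, a receptor for semaphorins and VEGF, went from 7.15, 7.13 and 7.32 to 5.32, 5.55 and 5.44, a fall by 1.77 ± 0.09 (adjusted p = 1.13e-05). EPHA7, an ephrin receptor, went from 9.26, 9.44 and 9.43 to 7.96, 8.01 and 7.82, a fall by 1.44 ± 0.08 (adjusted p = 2.34e-05). Neither overlapped between the groups, as was so for 41.1% of all genes. UNC5C (-1.03), PLXNA2 (-1.0 ± 0.12), SLIT2 (-0.75), NEO1 (-0.74) and NTN4 (-0.73) fell, and EFNB2, an ephrin ligand, rose by 0.94 ± 0.08 beside EPHA2.

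Several Wnt and BMP feedback genes fell. On the Wnt list 7 of 23 fell and 3 rose, with a median of -0.11. The secreted or membrane inhibitors APCDD1 (-1.17 ± 0.18) and RNF43 (-0.85 ± 0.08), the R-spondin receptors LGR5 (-0.79) and LGR4 (-0.70 ± 0.08) and the receptor FZD4 (-0.53 ± 0.09) fell, and AXIN2 (-0.11) did not pass. DKK1, a secreted Wnt inhibitor, was below the limit in mock and rose by at least 0.84, with agonist values of 3.40, 2.99 and 4.08. Leaving out agonist replicate 2 or 3 or mock replicate 2 or 3 left 1 gene that rose, and with the 6 arrays alone 1 rose and 4 fell.

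BMP2, a secreted ligand, went from 6.54, 6.53 and 6.60 to 8.31, 8.28 and 8.18, a rise of 1.70 ± 0.06 (3.25-fold, adjusted p = 2.57e-06). The inhibitory Smads SMAD6 (-0.99 ± 0.17) and SMAD7 (-0.65 ± 0.11), SMAD3 (-0.47 ± 0.07) and BMP4 (-0.52 ± 0.11) fell. On the TGF-beta and BMP list the median was -0.06. There 8 of 20 genes fell (40%) and 1 rose (5%), against 14% and 7.94% of all genes. That count was among the less stable ones: 5 fell and 2 rose without mock replicate 1, 5 fell without agonist replicate 2 or 3 or mock replicate 3, and 3 fell without agonist replicate 1 or mock replicate 2. BMP4 lost its call in 5 settings, among them without agonist replicate 1 or 2 or mock replicate 2.

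Notch genes were mostly below the threshold, 4 up and 1 down of 22 (18.2% and 4.55%, against 7.94% and 14% of all genes). NRARP, a Notch feedback inhibitor, went from 6.59, 6.48 and 6.17 to 9.26, 9.26 and 9.19, a rise of 2.82 ± 0.11 (7.07-fold, adjusted p = 2.79e-06). The ligand DLL1 rose by 1.17 ± 0.11 with -0.13 for GPR39 minus mock, and the coactivator MAML2 fell by 0.89 ± 0.17. HEY1 (0.01), JAG1 (0.01) and HES5 (-0.12) did not pass. DTX1 (0.52) and HES4 (0.42) lost their calls in 4 and 9 settings, and without mock replicate 2 or 3 the genes that rose numbered 2. PTCH1, the Hedgehog receptor and a target of its own pathway, fell by 1.32 ± 0.10 (adjusted p = 0.000107).

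Adhesion and matrix genes held both large rises and falls, 6 and 4 of 17 (35.3% and 23.5%), against 7.94% and 14% of all genes. The list median was 0.29. CD44, the hyaluronan receptor, went from 4.09, 4.35 and 4.19 to 6.73, 6.83 and 6.71, a rise of 2.55 ± 0.08 (5.86-fold, adjusted p = 1.33e-06). Thrombospondin THBS1 rose by 2.29 ± 0.12 and tenascin TNC by 1.62 ± 0.07. TM4SF1, a tetraspanin-like surface protein, was below the limit in all mock arrays and rose by at least 2.39. MYOF, a membrane repair protein, rose by 1.97 ± 0.07, all of it seen in the GPR39 group (2.05, with -0.07 for agonist minus GPR39). VCAN, the proteoglycan versican, fell by 1.52 ± 0.19 (adjusted p = 0.00136), with mock replicate 1 at 7.46 below the other mock arrays at 8.08 and 8.26. FN1 was at 0.06.

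Of 24 insulin and IGF genes 5 fell (20.8%) and 3 rose (12.5%), against 14% and 7.94% of all genes. IGFBP5, an IGF-binding protein, went from 6.53, 6.45 and 6.45 to 4.45, 4.79 and 4.76, a fall by 1.81 ± 0.10 (adjusted p = 2.52e-05). IRS4, the insulin receptor substrate typical of HEK293 cells, went from 10.49, 10.58 and 10.57 to 9.71, 10.00 and 9.37, a fall by 0.85 ± 0.14 (adjusted p = 0.0053). The pseudokinases moved apart: TRIB1 rose by 1.40 ± 0.09 and TRIB2 fell by 1.65 ± 0.09, with -0.47 from its other probe set. IGF1R rose by 0.93 ± 0.13.

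Of 26 tested mitotic genes 12 fell (46.2%) and none rose, against 14% and 7.94% of all genes. Another 14 did not pass, and the median was -0.26 against -0.01 over all genes. HMMR, a spindle protein, went from 8.33, 8.34 and 8.35 to 7.56, 7.56 and 7.51, a fall by 0.80 ± 0.06 (adjusted p = 0.00014). The kinesin KIF20A fell by 0.80 ± 0.11, cyclin CCNB2 by 0.51 ± 0.08, topoisomerase TOP2A by 0.41 ± 0.06 and the checkpoint kinase BUB1 by 0.37 ± 0.06. CDK1 (0.06), AURKA (0.05) and MKI67 (-0.12) did not pass. The count was 7 after 75th-percentile centring or with the 6 arrays alone.

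Replication genes split evenly, 5 up and 5 down of 25 (20% each, against 7.94% and 14% of all genes), with a median of 0.06. RRM2, a ribonucleotide reductase subunit, went from 8.05, 8.06 and 8.0 to 8.73, 8.74 and 8.79, a rise of 0.71 ± 0.06 (adjusted p = 0.000235). GINS3 (0.69), cyclin CCNE2 (0.53) and CDC6 (0.50) rose, while MCM5 (-0.39), GINS2 (-0.41) and GINS4 (-0.48) fell. The falls numbered 2 without mock replicate 1, agonist replicate 1 or mock replicate 2, 3 without agonist replicate 2, and 1 after 75th-percentile centring.

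Of 18 tested interferon-stimulated genes 4 fell (22.2%, against 14% of all genes) and none rose (3 at an unadjusted p under 0.05). Their median was -0.18. HERC6 fell by 1.10 ± 0.07 (adjusted p = 7.43e-05), RIGI by 0.40, USP18 by 0.47, and IFIT1 by at least 0.15 from a mock level near the limit. USP18 lost its call in 10 settings and RIGI in 6, both of them with the 6 arrays alone, after 75th-percentile centring and without mock replicate 1 or 2. Without mock replicate 1 their adjusted p-values were 0.0915 and 0.0582, and 1 gene of the list rose and 2 fell. ISG15 was at 0.64 and IFITM3 at 0.41 without passing.

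None of 12 respiratory chain genes passed by the adjusted p in limma, with changes from -0.19 to 0.02 (2 lower and 0 higher at an unadjusted p under 0.05). Of 33 cytosolic ribosomal protein genes 4 rose (12.1%, against 7.94% of all genes) and none fell (against 14%). Those 4 were RPS24, RPS6, RPS9 and RPL29, at 0.30 to 0.36. At an unadjusted p under 0.05 in limma, 14 were higher and 0 lower. The median was 0.18. The count of rises by the adjusted p ran from 1 to 8 over the settings, with 1 without mock replicate 1, mock replicate 3 or agonist replicate 1 and 2 without agonist replicate 3. Lysosomal genes fell in 4 of 21 (19.0%, against 14% of all genes), and 1 rose (4.76%, against 7.94%). CTSO fell by 0.98 ± 0.20, CTSD by 0.48, CTSZ by 0.47 and CTSC by 0.40, and CD68 rose by 1.23 ± 0.12. Of NRF2 and glutathione genes 3 of 19 rose (15.8%) and 2 fell (10.5%), against 7.94% and 14% of all genes. NFE2L2 (0.56) and the thioredoxin reductase TXNRD1 (0.52) rose, GPX8 fell by 1.32 ± 0.10, and HMOX1 was at -0.09.

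Several large changes lay outside these lists. The histone demethylase KDM6B rose by 2.35 ± 0.08, the synaptic scaffold HOMER1 by 2.33 ± 0.08, the natriuretic peptide NPPC by 2.40 ± 0.11 and neurotensin NTS by 2.37 ± 0.15. GLIPR1 rose by 2.25 ± 0.09, of which 1.99 was seen in the GPR39 group. The zinc finger gene ZNF449 went from 6.10, 5.99 and 6.11 to 4.02, 4.02 and 4.15, a fall by 2.0 ± 0.07 (adjusted p = 1.76e-06). The mitochondrial protease OMA1 fell by 1.68 ± 0.17, the phosphatase DUSP19 by 1.71 ± 0.13, and the near-identical cilium genes IFT70B and IFT70A by 1.49 and 1.36, with -0.20 from the other probe set of IFT70A. USP17L12 and USP17L9P had the same values in every array (2.74 ± 0.09), as copies of 1 repeated family.

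Some of the largest falls were of noncoding transcripts. LINC02893 fell by 1.79 ± 0.21 and C2orf74-DT by 1.55 ± 0.15. BACE1-AS fell by 1.47 ± 0.16, and this antisense gene overlaps BACE1, whose signal was not separated from it here. SLIT2-IT1, inside SLIT2, fell by 1.34 ± 0.38 (adjusted p = 0.0482), and mock replicate 1 (5.06) lay far from replicates 2 and 3 (6.42 and 6.70). Without mock replicate 1 its change was -1.84 (adjusted p = 0.000798), and without any other array of the 6 it did not pass.

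The promoter letters were counted for 9036 of the 11916 genes, those with an entry in the promoter table, in the same 250 bases before the start. AP-1 letters occurred in 4.49% of all genes, in 4.73% (35 of 740) of genes higher and in 2.90% (41 of 1413) of genes lower. At 2-fold or more they occurred in 13.46% (14 of 104) of genes higher and 4.90% (5 of 102) of genes lower. The NF-kB motif, searched by its consensus, occurred in 6.09% of all, 7.30% of genes higher and 5.10% of genes lower, and at 2-fold or more in 13.46% and 6.86%. TEAD letters were in 9.65% of all, 9.19% of genes higher and 9.70% of genes lower, and at 2-fold or more in 12.5% and 3.92%. The cyclic AMP element TGACGTCA was in 2.59% of all, 5.95% (44 of 740) of genes higher and 2.41% (34 of 1413) of genes lower, and at 2-fold or more in 4.81% (5 of 104) and 3.92% (4 of 102). The CArG box was in 1.10% of all, 1.89% of genes higher and 0.991% of genes lower, and the ATF4 letters TGATGCAA in 0.465%, 0.541% and 0.142%. At 2-fold or more the CArG box was in 1.92% of genes higher and none of those lower, and the ATF4 letters in 0.962% and none. These are matches of letters, given with no test.

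Markers of the cell line and of other cell types mostly did not pass. Of 12 tested HEK293 and kidney lineage genes 1 rose (8.33%) and 4 fell (33.3%), against 7.94% and 14% of all genes. The endocytic receptor LRP2 (-1.15 ± 0.16), IRS4, EYA1 (-0.64 ± 0.08) and VIM (-0.46 ± 0.07) fell and KRT18 (0.29) rose, while PAX2, PAX8 and SALL1 did not pass. The LRP2 difference was seen in the GPR39 group (-1.03, with -0.12 for agonist minus GPR39). None of 5 endothelial, 4 hepatocyte, 3 squamous or 1 fibroblast markers passed in limma; at an unadjusted p under 0.05, 2 endothelial markers were higher and 0 of the others differed. Of leukocyte markers 1 of 5 rose, the lysosomal gene CD68, and of neuronal markers SYP (0.67) rose and MAP2 (-0.40) fell among 4. Taking the probe set with the highest mean per gene, no neuronal marker rose and 1 fell. SYP lost its call with the 6 arrays alone and without agonist replicate 1 or 2 or mock replicate 2 or 3, MAP2 with the 6 arrays alone, and KRT18 with the 6 arrays alone or without mock replicate 2.

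On the lists with no gene falling, an unadjusted p under 0.05 in limma gave 0 falls among immediate-early, NF-kB, chemokine, RGK and ribosomal protein genes, 1 each among ER and hypoxia genes and 2 among cyclic AMP genes. It gave 0 rises among mitotic genes.

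Without mock replicate 1, 23 immediate-early genes, 14 ERK genes, 12 NF-kB genes and 14 chemokine and growth factor genes rose, with 1 ERK gene falling. Likewise 10 HOX genes, 8 mitotic genes and 9 guidance genes fell. Of 195 named genes 177 kept their call in every setting run and none changed sign. The probe sets past the threshold numbered 4947 without that array, against 5022 with it.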

How the data were processed

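RNA was labelled with biotin and hybridised to single-colour Affymetrix arrays, per the labels' protocols. Per the submitters' processing notes MAS5 was used. The deposited log2 signals run from 0.717 to 13.4977; the version, the log2 step and any normalization between arrays are not stated in the labels or files used. The annotation names 1 gene for 16098 of 53617 probe sets, several for 0 and none for 37519; all 16098 were found in RefSeq GRCh38.p14 by Entrez identifier. Unnamed probe sets were tested but not named.

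A probe set was tested where at least 3 of 9 arrays had it above their 40th percentile (33376, of which 12827 named, for 11916 of 14884 genes). All 9 arrays were fitted in limma 3.58.1 (R 4.3.3) with lmFit and eBayes (6 residual and 2.12 prior degrees of freedom), two-sided, adjusted by Benjamini-Hochberg over all tested probe sets, threshold 0.05. Errors after ± are standard errors of that fit. Levels after log2 are per array (n = 3 per group). The number of arrays limits the precision. The scripts were tested on simulated data.

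Named are the 30 largest rises and falls with arrays that do not overlap and a higher-group mean above 4.60, plus, from each of 34 pathway and 7 cell type lists, at most 5 members past the threshold, by smallest p. Other list members are given by their change as examples, chosen after their values were seen. Members and lists were chosen with earlier results of these data known. The result of 1 pathway list is not reported here.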

Additional observations from a re-analysis of the deposited data

How the results depend on the processing

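With the 6 agonist and mock arrays alone, 3133 probe sets passed in place of 5022, with fewer residual degrees of freedom. The other settings stayed within 1.5 times: 4193 without the filter, 5633 with the filter at the 60th percentile, 5065 and 4930 after centring on the median and the 75th percentile, 4847 after quantile normalization, 5515 with trend and robust eBayes and 4950 without the 1318 repeated rows. Replicate numbers are shared between the groups, but same-numbered arrays did not deviate together (correlations 0.06, 0.03 and -0.10) and not every array correlated best with its own number, so they were not taken as pairs; with the number as a replicate block 3955 passed. Leaving out 1 array gave 3493 to 4947 probe sets, and 601 to 828 at 2-fold or more against 628, the highest without mock replicate 1. List members called ran from 222 to 322 against 300. The GPR39 difference ran from 0.07 to 0.18 and passed nowhere. Choosing the probe set with the highest mean per gene, added after the data were seen, gave 932 genes higher and 1663 lower. Among 195 named genes, each followed on its own probe set in at most 15 settings, 18 lost the call at least once. The choice by highest mean was not among those settings.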

Other observations

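Among 474 tested microRNA genes 15 were higher (3.16%) and 7 lower (1.48%), against 7.94% and 14% of all genes. They were dim, with a median level of 3.81, and dim genes were called less often. In the dimmest of 4 equal classes of genes by mean signal (median level 3.19), 2.99% were higher and 1.95% lower. In the next class (median level 4.55) it was 5.51% and 12.5%. The probe sets measure total RNA at these genes and do not tell the precursor from the mature form. MIR4534 went from 5.90, 5.85 and 5.88 in mock to 7.86, 7.35 and 7.27 with agonist, a rise of 1.62 ± 0.15 (adjusted p = 0.000317, limma), and MIR574 from 7.87, 7.89 and 7.31 to 8.83, 8.71 and 8.71, a rise of 1.06 ± 0.16 (adjusted p = 0.00384). A pair of HOX cluster genes with the same seed moved in opposite directions. MIR196A2, on chromosome 12, was at 2.42, 2.23 and 2.66 in mock and 3.12, 3.48 and 3.22 with agonist (adjusted p = 0.00411), and all 3 mock arrays lay below the 40th percentile used as the detection limit. MIR196B, on chromosome 7 in the HOXA cluster, went from 7.12, 7.45 and 7.13 to 6.20, 6.61 and 6.72, a fall by 0.72 ± 0.14 (adjusted p = 0.0126). Their 5p mature sequences, from RefSeq GRCh38.p14, are shown with the seed, bases 2 to 8, in capitals because the seed is what they share.
hsa-miR-196a-5p: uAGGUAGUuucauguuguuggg
hsa-miR-196b-5p: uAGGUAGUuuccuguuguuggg

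Calls depended on the level of a gene. With the genes cut into 4 equal classes by mean signal, from the dimmest to the brightest, 89, 164, 263 and 430 were higher and 58, 371, 613 and 629 lower. Of 815 long noncoding RNA genes 34 were higher and 57 lower, against 879 and 1595 of 10280 protein-coding genes. Among families by symbol, 60 of 450 ZNF genes were lower (13.3%, near the 14% of all genes) and 24 higher (5.33%). Of 202 TMEM genes 37 were lower (18.3%) and 10 higher (4.95%), and of 51 RPL genes 8 were higher (15.7%) and 1 lower (1.96%).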
